A study of Mus musculus with 4 samples.

Results

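Aminoacyl-tRNA synthetases are described here in the lens of mice that lack Tdrd7. The 36 genes were chosen by name, as the nuclear genes for the cytosolic enzymes (20 genes) and for the mitochondrial enzymes (16 genes), and all 36 were among the 10790 genes measured. No measured value entered that choice. The study had 4 libraries of polyadenylated RNA from whole lenses at postnatal day 4, 2 from Tdrd7 -/- mice and 2 from mice labelled as wild type controls. Each library was a pool of 15 lenses, given as a biological replicate, so animals within a pool cannot be told apart. The spread between the libraries of a genotype is a spread between 2 pools. The strain, the sex and the way the null allele was made are not given in the labels.

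Each synthetase joins an amino acid to its tRNA, the step that sets the genetic code, and the enzymes fall into class I and class II by the fold of their catalytic domain. In animal cells 8 of the cytosolic enzymes are held in the multisynthetase complex around the scaffold proteins AIMP1, AIMP2 and EEF1E1, while a separate set of nuclear-encoded enzymes is imported to charge mitochondrial tRNAs. Gars and Kars are known to give a cytosolic and a mitochondrial form from a single gene, and Eprs gives a bifunctional enzyme for glutamate and proline. Tdrd7 encodes a Tudor-domain protein of RNA granules, and its loss causes cataract. Lens fibre cells make very large amounts of crystallin protein before they lose their organelles.

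Values are scaled reads, that is, counted reads scaled by a single factor in each library and not corrected for the length of the gene. The Tdrd7 null libraries held 39080159 and 33920522 reads in the listed genes and the control libraries 41096488 and 42767535. Reads in a single synthetase gene ranged across the libraries between 42 for Mars2 and 14905 for Lars2, both in Tdrd7 null replicate 2. Tdrd7 itself stood at 165 and 96.6 scaled reads in the null libraries, against 1188 and 972 in the control libraries, so it was low in both libraries labelled null. All 15 lens markers were measured, with summed levels of 293796 and 263824 in null lenses and 285054 and 291237 in control lenses, and 3 of them (20%, beside 18% of all genes tested) were called by the test given below, all lower in the null. These were Lim2, Foxe3 and Hsf4, with log2 fold changes of -0.25, -0.43 and -0.27, and over the 15 markers 5 log2 fold changes were above 0, up to 0.46 for Bfsp2, and 10 below. With the trend on GC content removed, Foxe3 stood at -0.14 and Hsf4 at -0.09. No lens marker in that fit was called, beside 3.28% of all genes in it. Lim2 had no GC content assigned and was not in that fit. Of markers of other cells, none of those chosen for macrophages, retinal neurons, red cells or skeletal muscle was among the genes measured, and 6 of 8 for endothelium, 4 of 6 for pericytes, 2 of 6 for the ciliary body and 1 of 6 for pigment cells were. The measured pericyte markers went both ways, with log2 fold changes of -0.50 for Notch3 and -0.34 for Pdgfrb, which were called, and 0.35 for Rgs5 and 0.13 for Abcc9, which were not. Of the ciliary markers Mfap4 stood at -0.21, which was called, and Aqp1 at 0.15, which was not. With the GC trend removed none of these was called, beside 3.28% of all genes (limma adjusted p 0.105 for Notch3, 0.254 for Pdgfrb and 0.148 for Mfap4). The 4 measured pericyte markers summed to 32.0 and 35.7 scaled reads in null and 47.3 and 37.3 in control lenses, and their part in the results below was not tested. In whole-lens RNA, fewer cells of a type and less RNA per cell cannot be told apart.

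The start regions of Dars, Farsb and Eprs are shown first, since these 3 of the genes that differed between the genotypes had an entry in the promoter table used here. They run from 250 bases before to 50 bases after the annotated start, as given by RefSeq on GRCm38.p6, in which 27 of the 36 genes had an entry. Capitals mark a match, on either strand, to any of 4 motifs searched, which were the ATF4-C/EBP element TGATGNAA of the amino acid response, the E-box CACGTG bound by MYC and related factors, the NRF1 core GCGCATGC and the ETS core CCGGAAG. Dars lies on the minus strand of chromosome 1 (window chr1:128417367-128417666), Farsb on the minus strand of chromosome 1 (chr1:78488848-78489147) and Eprs on the plus strand of chromosome 1 (chr1:185362794-185363093).
Dars: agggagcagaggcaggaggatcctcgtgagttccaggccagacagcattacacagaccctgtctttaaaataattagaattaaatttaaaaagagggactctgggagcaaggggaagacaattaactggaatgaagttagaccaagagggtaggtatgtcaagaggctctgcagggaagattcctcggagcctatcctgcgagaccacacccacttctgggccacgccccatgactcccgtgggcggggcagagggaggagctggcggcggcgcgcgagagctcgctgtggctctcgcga
Farsb: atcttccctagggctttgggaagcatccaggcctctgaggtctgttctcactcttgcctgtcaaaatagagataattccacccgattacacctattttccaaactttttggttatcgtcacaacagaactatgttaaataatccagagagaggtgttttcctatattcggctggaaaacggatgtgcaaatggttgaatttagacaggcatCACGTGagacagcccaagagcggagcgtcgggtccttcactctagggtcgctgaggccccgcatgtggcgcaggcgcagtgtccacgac
Eprs: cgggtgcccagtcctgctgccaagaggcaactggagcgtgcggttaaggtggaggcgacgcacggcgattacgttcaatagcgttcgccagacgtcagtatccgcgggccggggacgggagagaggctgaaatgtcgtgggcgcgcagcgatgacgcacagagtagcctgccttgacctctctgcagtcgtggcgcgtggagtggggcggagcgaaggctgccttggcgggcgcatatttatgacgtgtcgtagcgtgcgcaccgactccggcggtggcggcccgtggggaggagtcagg
The Dars and Eprs windows held none of the 4 motifs, and the Farsb window held a single E-box that began 39 bases before the start. GC content of the windows was 55.7% for Dars, 49.3% for Farsb and 66.0% for Eprs, against a median of 52.7% over all promoter entries.

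The ATF4-C/EBP element is the sequence through which ATF4 is known to raise several synthetase genes when amino acids are short. It was present in 5 of the 27 synthetase windows (18.5%), those of Aars, Gars, Iars, Tars and Yars, against 2.07% of the 10460 windows of genes tested here and 3.97% of all 32851 windows. The windows of Aars (plus strand, chr8:111033592-111033891), Iars (plus strand, chr13:49681880-49682179) and Tars (minus strand, chr15:11399609-11399908) are shown because each also held an E-box. They were chosen after the motif matches had been seen.
Aars: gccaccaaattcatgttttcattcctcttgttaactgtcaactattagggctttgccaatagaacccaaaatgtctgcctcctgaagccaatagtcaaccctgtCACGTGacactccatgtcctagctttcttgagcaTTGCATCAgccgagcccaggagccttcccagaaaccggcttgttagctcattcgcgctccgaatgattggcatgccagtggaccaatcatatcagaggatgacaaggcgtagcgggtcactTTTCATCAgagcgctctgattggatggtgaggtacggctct
Iars: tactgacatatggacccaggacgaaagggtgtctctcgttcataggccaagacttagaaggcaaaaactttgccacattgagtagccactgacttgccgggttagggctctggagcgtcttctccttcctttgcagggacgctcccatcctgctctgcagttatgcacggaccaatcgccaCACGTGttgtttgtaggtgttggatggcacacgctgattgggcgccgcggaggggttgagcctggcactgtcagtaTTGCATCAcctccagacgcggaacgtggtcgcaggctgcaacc
Tars: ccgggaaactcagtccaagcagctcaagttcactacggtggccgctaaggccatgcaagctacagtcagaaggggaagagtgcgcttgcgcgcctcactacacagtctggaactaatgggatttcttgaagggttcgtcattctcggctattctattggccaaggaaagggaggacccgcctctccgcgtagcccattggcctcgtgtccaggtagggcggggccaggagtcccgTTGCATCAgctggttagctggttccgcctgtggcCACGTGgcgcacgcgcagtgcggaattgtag
The Aars window held the element 112 bases before and 9 bases after the start and an E-box 146 bases before it. In Iars the element began 7 bases after the start and the E-box 69 bases before it, and in Tars the element began 15 bases before and the E-box 19 bases after the start. No matches overlapped in these windows. Over all 27 windows, the E-box was found in 5 (18.5%, against 10.3% of the windows of genes tested), the NRF1 core in 3 (11.1%, against 5.65%) and the ETS core in 9 (33.3%, against 18.2%). None of the 5 genes with the ATF4-C/EBP element differed between the genotypes by the test given below, beside 18% of all genes tested. So few genes cannot show a departure from that share. Their log2 fold changes lay between -0.03 and 0.11 with a median of 0.01. A match is a description of the letters in these windows.

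**Figure D1:**
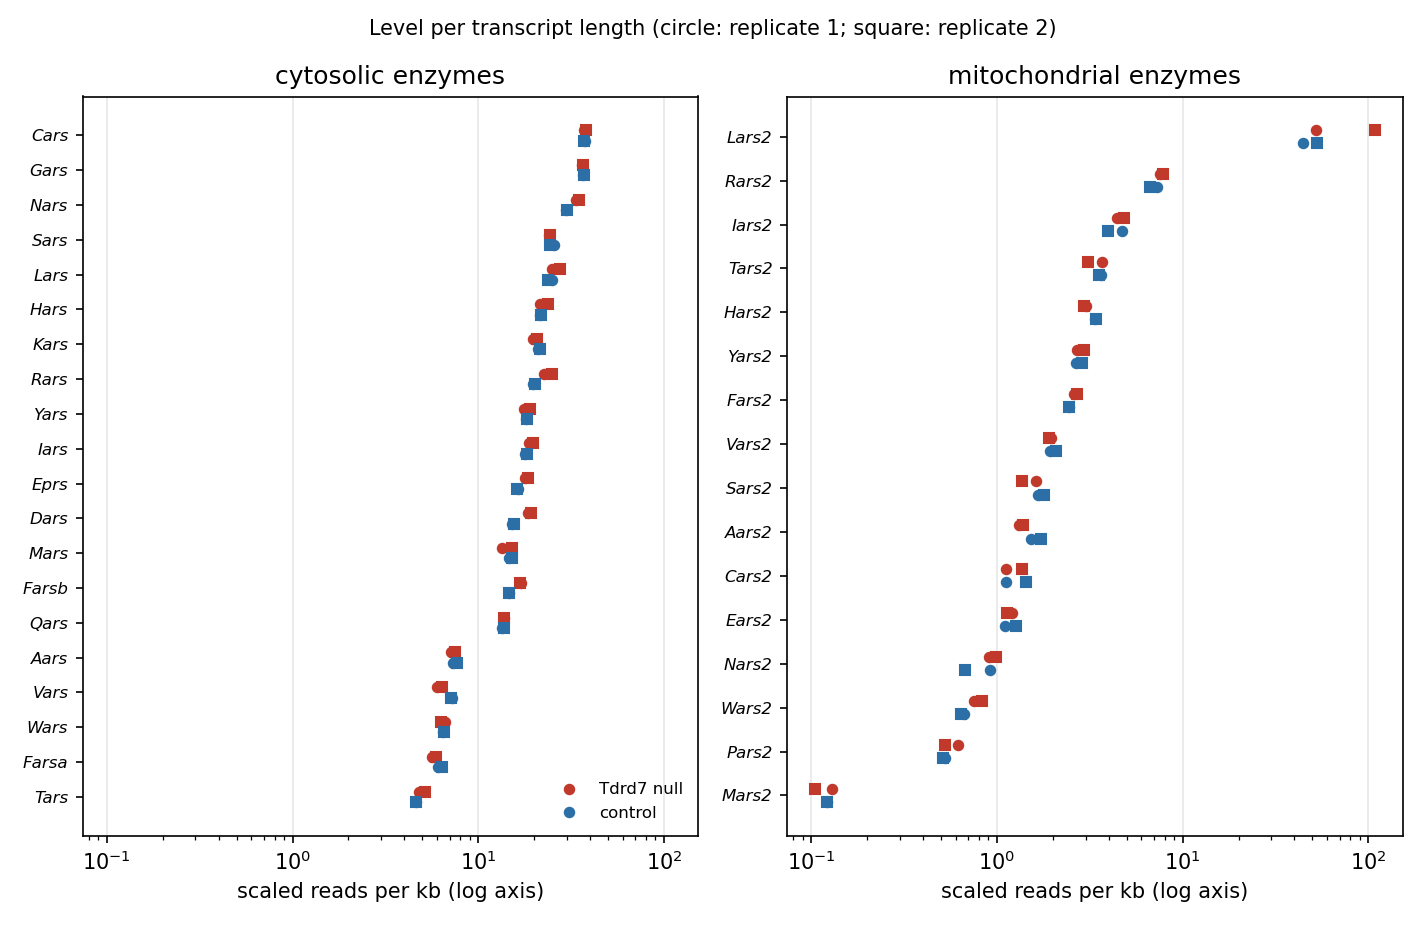
Scaled reads per kb of the longest annotated transcript (x axis, log scale) for each cytosolic and mitochondrial synthetase gene, ordered by the control mean, in Tdrd7 null libraries (red) and control libraries (blue), 2 of each. Cytosolic genes sit between about 4.6 and 38.2 scaled reads per kb, and all mitochondrial genes but Lars2 reach at most 7.88.

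Per length of transcript, Cars, for cysteine, was the highest cytosolic gene and Tars, for threonine, the lowest. Cars stood at 37.2 and 38.2 scaled reads per kb in null lenses and 37.4 and 36.9 in control lenses. Gars, for glycine, followed at 36.2 and 36.5 in null and 36.7 and 36.9 in control lenses, so the order of these neighbours was within the spread of the libraries. Tars stood at 4.80 and 5.19 scaled reads per kb in null and 4.60 and 4.64 in control lenses. In scaled reads, without the length correction, Cars had 120 and 123 in null and 120 and 119 in control lenses, and Tars 19.6 and 21.2 in null and 18.8 and 19.0 in control lenses. Neither gene passed the test between the genotypes.

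Among the mitochondrial enzymes Lars2, for leucine, was the highest per length and Mars2, for methionine, the lowest. Lars2 reached 52.1 and 108 scaled reads per kb in null lenses and 44.7 and 52.6 in control lenses, and the next gene, Rars2, stood at 7.55 and 7.88 in null and 7.30 and 6.66 in control lenses. Mars2 stood at 0.130 and 0.105 scaled reads per kb in null and 0.122 and 0.121 in control lenses. Its longest annotated transcript is 11294 nt, while the deposited table gives the gene a shorter span, from 55237177 to 55240058 on chromosome 1. The value per length is therefore lower than that span would give. In scaled reads, Mars2 had 1.46 and 1.18 in null lenses and 1.37 and 1.37 in control lenses, also the lowest of the 36.

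For 13 amino acids a single-gene, single-function cytosolic enzyme and a separate mitochondrial enzyme were measured, which leaves out the bifunctional Eprs (beside Ears2 and Pars2) and the subunit genes Farsa and Farsb (beside Fars2). Per length, the cytosolic gene was higher in all 4 libraries in 12 of the 13 pairs. The median of the ratios was 6.47 in null and 6.36 in control lenses. With 11294 nt taken for Mars2, the widest gap was between Mars and Mars2, at 125 in null and 123 in control lenses. The shorter deposited span of Mars2 would narrow that gap. Nars to Nars2 followed, at 36.1 in null and 38.5 in control lenses, so which pair had the widest gap is uncertain. The exception was leucine, where Lars2 exceeded Lars in every library, with cytosolic to mitochondrial ratios of 0.480 and 0.254 in null lenses and 0.558 and 0.450 in control lenses. The transcript chosen for length includes 1326 nt shared with Exosc6 for Aars and 2034 nt shared with Rab3gap2 for Iars2, so the levels of these 2 genes per length are uncertain.

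Between the genotypes, 5 synthetase genes were higher and 1 was lower in Tdrd7 null lenses, and all 6 encode cytosolic enzymes. Dars, Rars, Nars, Farsb and Eprs rose, by 1.13-fold to 1.24-fold, and Vars fell to 0.865 of its control level. No mitochondrial synthetase gene passed the test. Tests were made with limma and Benjamini-Hochberg adjustment over 10696 genes, those averaging 1 scaled read or more, and genes are said to be called, or to have risen or fallen, where the adjusted p was under 0.05. All 36 synthetase genes passed that filter. The 6 called genes were 16.7% of the 36, beside 18% of all genes tested (1920 of 10696), of which 10.1% were called higher and 7.88% lower. When the libraries were instead scaled to totals without the crystallin genes, 768 genes were called higher and 1262 lower, beside 1077 higher and 843 lower as deposited.

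Log2 fold changes over the family ran between -0.23 for Aars2 and 0.63 for Lars2. Medians of the log2 fold change were 0.02 for the family, 0.02 for the cytosolic and 0.01 for the mitochondrial enzymes, against -0.01 for all genes. With totals taken without the crystallin genes, all 3 of these family medians stood at -0.02, against -0.04 for all genes. The 2 groups did not overlap for 20 of the 36 genes (55.6%), with the null above in 12 and below in 8, beside 61.5% of all genes tested. Class I enzymes, with the bifunctional Eprs counted there only, held 2 genes called higher and 1 called lower of 19 (15.8%). Class II enzymes held 3 called higher and none lower of 17 (17.6%), beside 18% of all genes tested.

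**Figure D2:**
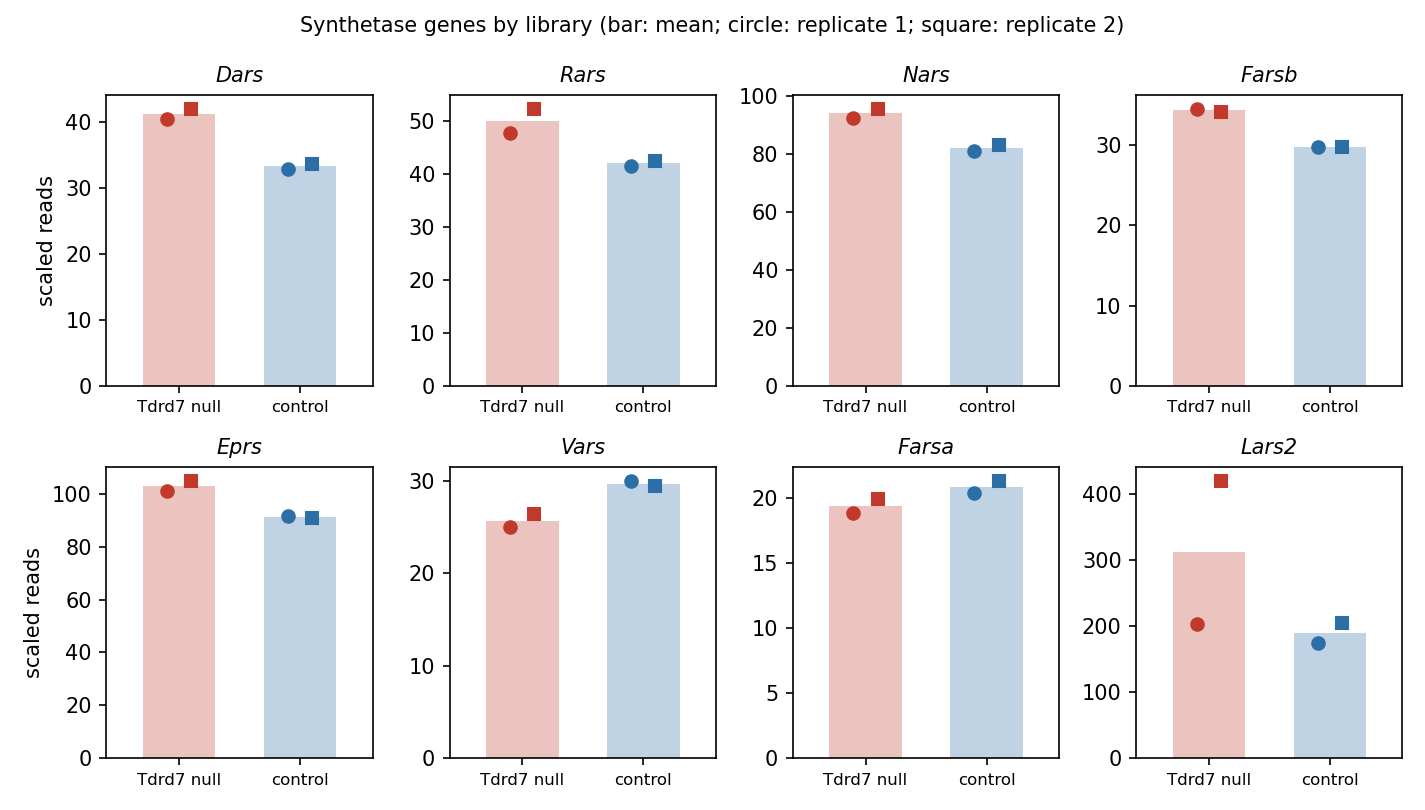
Scaled reads (y axes, from 0) of the 6 called synthetase genes and of Farsa and Lars2, in Tdrd7 null libraries (red, left) and control libraries (blue, right). Bars are means of 2 pools, circles replicate 1 and squares replicate 2. Null and control points are apart for the 6 called genes, and Lars2 is high in null replicate 2.

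Of the 8 enzymes of the multisynthetase complex, Dars, Rars and Eprs rose in the null lenses and 5 did not pass the test. The called genes were 37.5% of the 8, beside 18% of all genes tested. Positions are those of the deposited table (mm10). Dars, for aspartate, lies on chromosome 1 from 128363708 to 128417416. It had 40.4 and 42.0 scaled reads in null lenses and 32.9 and 33.7 in control lenses. Both null values lay above both control values, and the gene was 0.30 higher on the log2 scale (SE 0.0590, limma adjusted p = 0.00588). Rars, for arginine, lies on chromosome 11 from 35808381 to 35834506 and had 47.8 and 52.3 scaled reads in null and 41.5 and 42.5 in control lenses. Its null replicate 2 was the highest of the 4 libraries, and the gene was 0.25 higher on the log2 scale (SE 0.0613, limma adjusted p = 0.0169). Eprs, the bifunctional enzyme, lies on chromosome 1 from 185363095 to 185428355. It had 101 and 105 scaled reads in null and 91.6 and 90.8 in control lenses, again without overlap (log2 fold change 0.17, SE 0.0526, limma adjusted p = 0.0373). The other members, Iars, Kars, Lars, Mars and Qars, had log2 fold changes between -0.07 for Kars and 0.11 for Lars. The summed level of the 8 genes was 503 and 534 scaled reads in null and 481 and 484 in control lenses, a ratio of 1.07, and their median log2 fold change was 0.10, or 0.06 with totals taken without the crystallin genes.

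The scaffold genes of the complex did not pass the test. Aimp1, which binds tRNA and is also known in a secreted form, had a log2 fold change of 0.04 (limma adjusted p = 0.701). Aimp2, the core scaffold, stood at 8.25 and 7.72 scaled reads in null lenses and 9.43 and 9.44 in control lenses, with a log2 fold change of -0.22 (limma adjusted p = 0.0895). Eef1e1 had a log2 fold change of 0.19 (limma adjusted p = 0.153).

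Among the 12 cytosolic enzymes outside the complex, Nars and Farsb rose, Vars fell and 9 did not pass the test. The called genes were 25% of the 12, beside 18% of all genes tested. Nars, for asparagine, lies on chromosome 18 from 64499665 to 64516557. It had 92.5 and 95.6 scaled reads in null lenses and 81.1 and 83.0 in control lenses (log2 fold change 0.19, SE 0.0528, limma adjusted p = 0.0247). Vars, for valine, lies on chromosome 17 from 35000987 to 35016322 and had 25.0 and 26.4 scaled reads in null and 30.0 and 29.4 in control lenses, with both null values lower (log2 fold change -0.20, SE 0.0633, limma adjusted p = 0.0428). The summed level of these 12 genes was 636 and 658 scaled reads in null and 636 and 635 in control lenses.

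The phenylalanine enzyme is built from the products of Farsa, its catalytic subunit, and Farsb, its other subunit. Farsb lies on chromosome 1 from 78417958 to 78488859 and had 34.5 and 34.1 scaled reads in null lenses and 29.8 and 29.7 in control lenses (log2 fold change 0.20, SE 0.0593, limma adjusted p = 0.0343). Farsa had 18.8 and 19.9 scaled reads in null and 20.4 and 21.3 in control lenses, a difference of -0.10 on the log2 scale that did not pass (limma adjusted p = 0.322). Per length, the ratio of Farsa to Farsb was 0.333 and 0.354 in null lenses and 0.417 and 0.437 in control lenses, without overlap. With 2 libraries in each genotype, the smallest p that an exact permutation test allows is 0.333. Farsb shares 248 nt of exon with Sgpp2, and the kit did not mark strand, so its value is uncertain to that extent.

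For the 14 cytosolic genes that were not called, log2 fold changes lay between -0.10 and 0.11, and their 95% intervals together reached from -0.25 to 0.26. For 12 of them the interval lay wholly within 0.25 of 0. Fewer of the 6 called genes were called when any library was left out, which leaves a genotype with a single library. Their log2 fold changes then ranged between 0.27 and 0.33 for Dars, 0.18 and 0.31 for Rars and 0.17 and 0.22 for Nars. Those of Farsb ranged between 0.19 and 0.21, of Eprs between 0.15 and 0.20 and of Vars between -0.24 and -0.16. With totals taken without the crystallin genes Dars, Rars and Vars were called, beside 19.0% of all genes tested. With a prior that ignores expression level none of the 36 was, beside 0.15% of all genes tested.

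**Figure D3:**
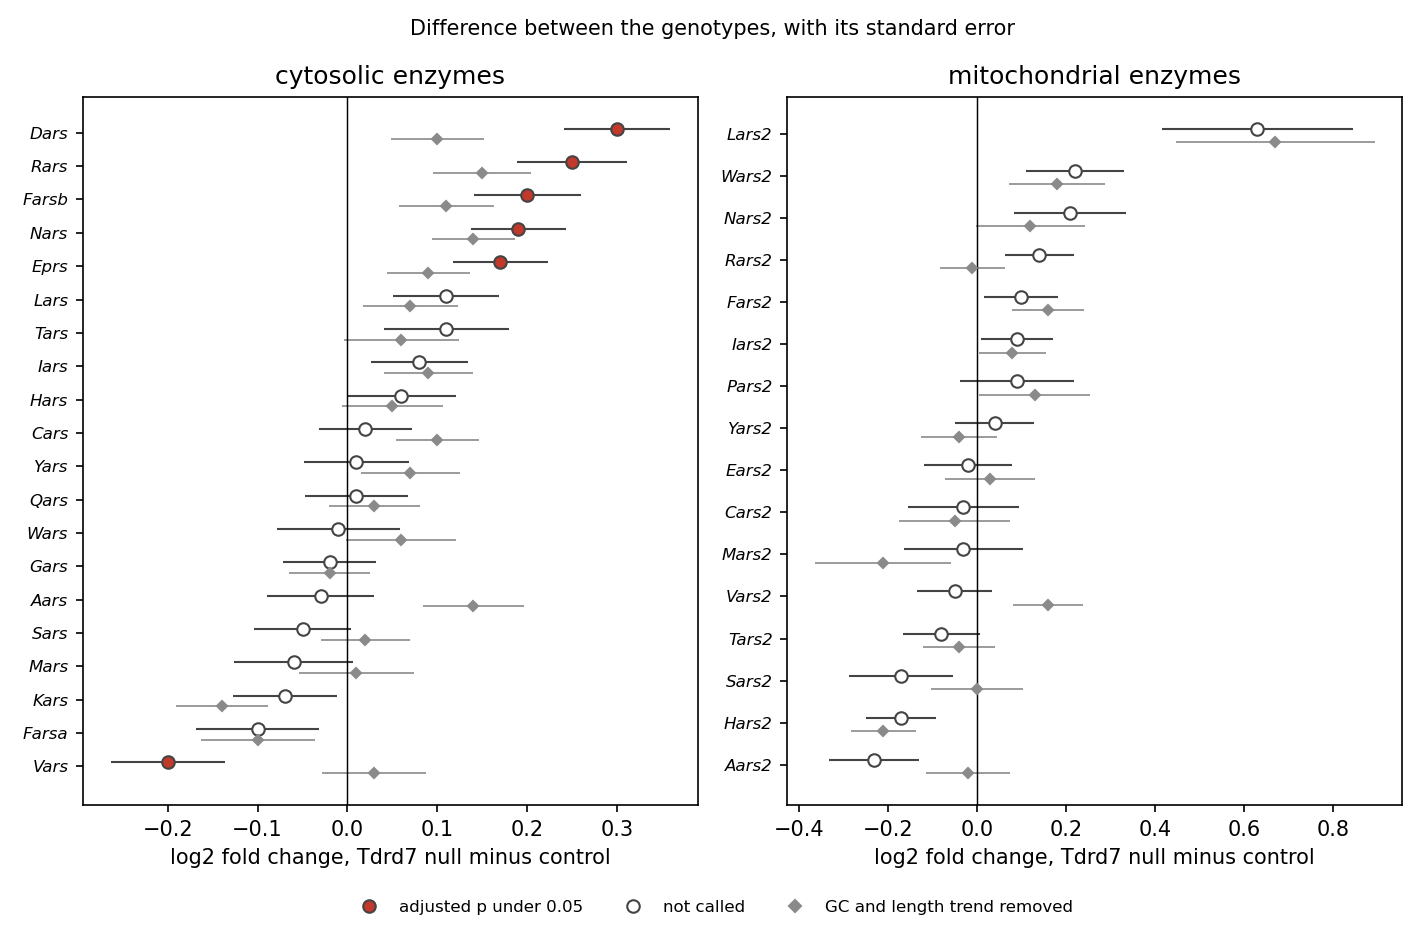
Log2 fold change, Tdrd7 null minus control (x axis), with its standard error for the 20 cytosolic and 16 mitochondrial synthetase genes, as deposited (circles, red when the adjusted p was under 0.05) and with the trend on GC content and transcript length removed (grey diamonds). The called genes move towards 0 once the trend is removed, and none of the 36 is then called, beside 3.28% of all genes.

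Fold changes in these libraries went with base composition, in the synthetase genes as in the rest of the table. Dars, Eprs, Rars, Farsb and Nars, which rose, had transcripts of 41.2%, 44.0%, 45.9%, 46.3% and 47.2% GC. Vars, which fell, had 60.9%. Median GC content was 42.6% over all genes called higher, 56.8% over all called lower, 49.8% over the synthetase genes and 49.6% over every gene tested. As a description, GC content and the log2 fold change had a Pearson's r of -0.501 and a Spearman's rho of -0.604 across the 36 genes. Over 10656 genes with a transcript r was -0.594 and rho -0.623. Genes are not independent replicates, and these values share the 4 libraries.

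By GC class, the 15 synthetase genes under 48% GC had a median log2 fold change of 0.14 with 5 called higher, beside a median of 0.11 and 21.9% called over all genes of that class. The 16 genes from 48% to 54% had a median of 0.00 with none called, beside -0.03 and 9.11%. The 5 genes of 54% or more had a median of -0.17 with 1 called lower, beside -0.15 and 22.3%. When the dependence on GC content and transcript length was taken out of each library, 3.28% of all genes (350 of 10656) and none of the 36 synthetase genes were called, and 7 of the 36 (19.4%) had an unadjusted limma p under 0.05, beside 18.7% of all genes. Dars then stood at 0.10, Rars at 0.15, Nars at 0.14, Farsb at 0.11, Eprs at 0.09 and Vars at 0.03, the last with its sign turned. Limma adjusted p then was 0.131 for Nars, the lowest of the 6, and 0.810 for Vars, the highest. The median over the 36 genes was 0.06 with the trend removed, against 0.00 over all genes. Whether the GC trend came from the lenses or from the preparation of the libraries was not tested.

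**Figure D4:**
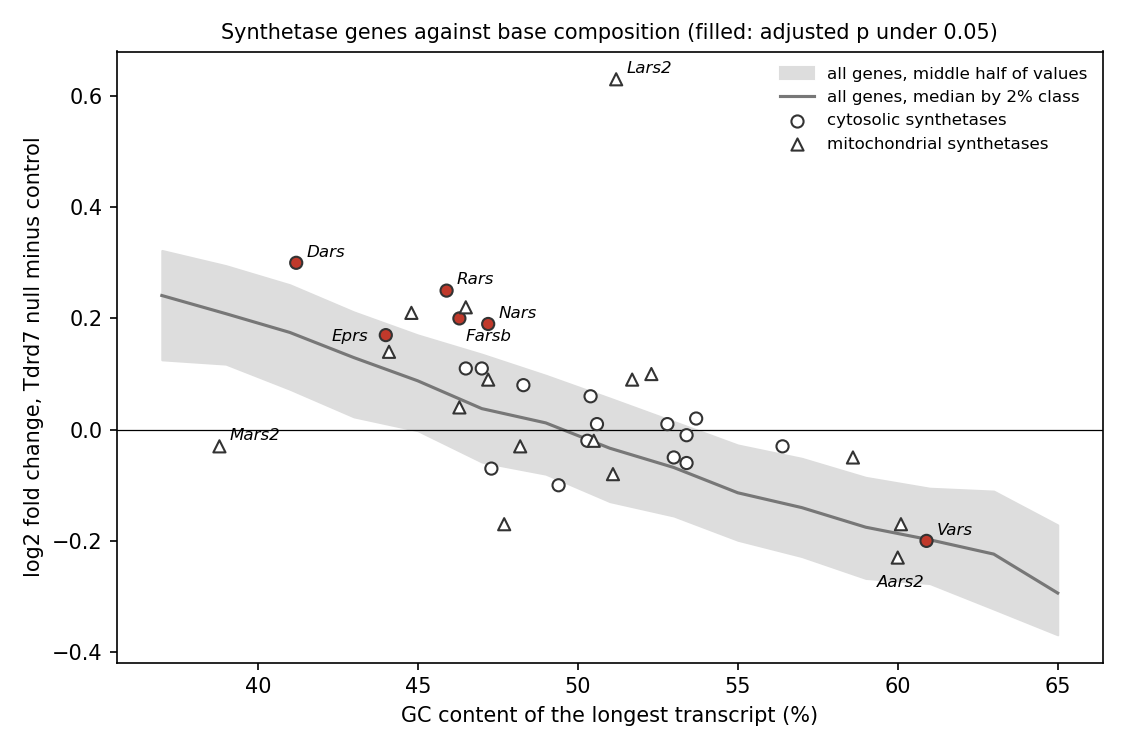
Log2 fold change, Tdrd7 null minus control (y axis), against GC content of the longest transcript (x axis) for cytosolic (circles) and mitochondrial (triangles) synthetase genes, filled where the adjusted p was under 0.05. The grey line is the median of all genes by class of 2% GC and the band the middle 50% of their values. The line of all genes falls with GC content, the 5 genes called higher lie above it at 41.2% to 47.2% GC, Vars lies on it at 60.9% and Lars2 lies far above it.

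None of the 16 mitochondrial synthetase genes passed the test, and 3 of them (18.8%), Lars2, Aars2 and Hars2, had an unadjusted limma p under 0.05, beside 33.1% of all genes tested. Without Lars2, their summed level was 114 and 115 scaled reads in null lenses and 114 and 112 in control lenses, a ratio of 1.01. The mitochondrial genes are low, and the 95% intervals of the 15 genes other than Lars2 reached from -0.45 to 0.48 on the log2 scale, wider than for the cytosolic genes. Only 3 of the 16 had an interval wholly within 0.25 of 0.

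Lars2 lies on chromosome 9 from 123366940 to 123462664 and had 203 and 420 scaled reads in null lenses and 174 and 205 in control lenses. A single library, null replicate 2, was far above the other 3, and null replicate 1 lay between the control libraries. Lars2 was 0.63 higher on the log2 scale (SE 0.215, limma adjusted p = 0.0609). Without null replicate 2 the difference was 0.10 (limma adjusted p = 0.436). Without null replicate 1 it was 1.15 (limma adjusted p = 3.42e-09), but there the null group is the single library that stands apart, and the spread comes from the control libraries and the prior alone. With a robust prior, all 4 libraries gave an adjusted p of 0.521 in limma. On the log2 scale Lars2 in null replicate 2 stood 1.03 above the next library, the largest such gap among the 10696 genes tested, ahead of 0.98 for the next gene. Over the synthetase genes, the median absolute difference between the null replicates was 0.0766 on that scale, and for Lars2 it was 1.04. Lars2 carries a short stretch that other annotated transcripts share. Bases 3233 to 3329 of its longest transcript match AA474408 over 97 nt at 94.8% identity, and bases 3278 to 3349 match the antisense transcript Gm15564 over 72 nt at 98.6%. The deposited values do not show where in the gene the reads fell, and the part of this stretch was not tested. Including Lars2, the mitochondrial enzymes summed to 317 and 535 scaled reads in null and 289 and 317 in control lenses.

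Values of 4 other mitochondrial genes follow, none of which passed the test. Aars2, for alanine, had 4.39 and 4.65 scaled reads in null lenses and 5.14 and 5.79 in control lenses, without overlap (log2 fold change -0.23, limma adjusted p = 0.135). With the GC trend removed it stood at -0.02. Wars2, for tryptophan, had 3.33 and 3.66 in null and 2.92 and 2.81 in control lenses (log2 fold change 0.22, limma adjusted p = 0.193), and stood at 0.18 with the trend removed. Nars2, for asparagine, had 3.43 and 3.74 in null and 3.45 and 2.55 in control lenses, with overlap (log2 fold change 0.21, limma adjusted p = 0.279). Hars2 had 10.1 and 9.77 in null and 11.3 and 11.4 in control lenses (log2 fold change -0.17, limma adjusted p = 0.141), while its neighbour Hars had a log2 fold change of 0.06. These 2 histidine genes share 195 nt of exon on opposite strands, so reads there cannot be told apart. Log2 fold changes of the cytosolic and mitochondrial gene had opposite signs in 4 of the 13 pairs, those for cysteine, tryptophan, histidine and threonine.

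Other genes of the same pathways were taken from lists of tRNA and translation factors. Of 7 genes of editing and deacylation, which remove mischarged amino acids, Aarsd1 fell (log2 fold change -0.51, limma adjusted p = 0.0243) at the low level of 0.692 and 0.929 scaled reads in null lenses and 1.62 and 1.54 in control lenses. It shares 1250 nt of exon with Gm27029. Of 13 measured genes of mitochondrial amidation, formylation and translation, the initiation factor gene Mtif2 rose by 0.24 on the log2 scale and the elongation factor gene Tufm fell by 0.33. Among 9 genes of cytosolic elongation and release, Eef1b2, for the exchange factor of EEF1A, and Etf1, for the release factor, each rose by 0.27. Eef1b2 had 246 and 252 scaled reads in null lenses and 203 and 210 in control lenses. In that order, the lists held 1 of 7 (14.3%), 2 of 13 (15.4%) and 2 of 9 (22.2%) called, beside 18% of all genes tested.

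Of 27 measured genes of tRNA maturation and export, Rpp30, for a subunit of RNase P, rose by 0.36 and Nsun2, for a tRNA methyltransferase, by 0.17 on the log2 scale. Of 14 genes for RNA polymerase III and its factors, which transcribe tRNA genes, the subunit genes Polr3f and Polr3k rose by 0.29 and 0.31. The transcripts of Polr3f and Polr3k have 41.8% and 40.9% GC. Called genes were 2 of 27 (7.41%) for tRNA maturation and export and 2 of 14 (14.3%) for RNA polymerase III. Of all genes tested 18% were called. With the GC trend removed no gene of these lists was called, beside 3.28% of all genes.

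Genes of the amino acid response, which includes synthetase genes among the targets of ATF4, were called about as often as all genes were, 4 of 21 (19.0%, beside 18%), with 5 log2 fold changes above 0 and 16 below. Slc7a11, for the cystine transporter, rose (log2 fold change 0.38, limma adjusted p = 0.00611). Phgdh, for the first enzyme of serine synthesis, Slc7a5, for a transporter of large neutral amino acids, and Sesn2, for a leucine sensor, fell, by 0.27, 0.24 and 0.56 on the log2 scale (limma adjusted p 0.0113, 0.0242 and 0.0333 in that order). Slc7a11 had 63.0 and 73.2 scaled reads in null and 55.2 and 49.2 in control lenses. Atf4 itself had 122 and 124 scaled reads in null lenses and 140 and 132 in control lenses (log2 fold change -0.14, limma adjusted p = 0.0767). Asns, for asparagine synthetase, had 11.8 and 13.0 in null and 15.4 and 12.6 in control lenses (limma adjusted p = 0.279). The median over the 21 genes was -0.10, or -0.04 with the GC trend removed, where none was called, beside 3.28% of all genes. None of the 4 kinase genes that phosphorylate eIF2 alpha was called, and Eif2ak4, for the kinase GCN2 that senses uncharged tRNA, had a log2 fold change of -0.18 (limma adjusted p = 0.112).

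Several synthetase genes share sequence with another annotated gene, which leaves their values less certain. Exonic overlap came to 211 nt for Cars with the pseudogene Gm15580, 422 nt for Cars2 with Naxd, 501 nt for Fars2 with Nrn1, 284 nt for Nars2 with C230038L03Rik and 465 nt for Vars2 with Gm20483. Iars matches a processed pseudogene, Gm4849, over 1656 nt at 96.0% identity. Of the synthetase genes called, only Farsb shared exonic sequence with another gene.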

How the data were processed

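RNA of 15 pooled postnatal day 4 lenses per library was read from both ends for 75 nt, from TruSeq v2 libraries, which do not mark strand. Per the submitters' processing notes, the reads went through Trimmomatic, TopHat2 2.0.9, Cufflinks or Cuffnorm, named with no roles, and the build was mm10 (GRCm38). How reads were counted and scaled is not stated there. The deposited signal was 1 value per gene and library (scaled reads). Every value lay within 0.01 reads of a whole multiple of a step that 1 library shares (0.0266 and 0.0282 in Tdrd7 null, 0.0241 and 0.0237 in control replicates 1 and 2), so 1 read sets the precision. FPKM had been assumed in planning.

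The genotypes were compared with limma 3.58.1 (R 4.3.3) on log2(scaled reads + 1), which understates changes of low genes, for genes with a mean of at least 1, with an intensity-dependent prior and two-sided tests (residual degrees of freedom 2, prior 11.1). The fit was checked on simulated data. Intervals are at 95% from the same fit (SciPy 1.17.1). p-values rest on the spread between 2 pools per genotype and, with more weight, on the prior drawn from genes of like expression. Each gene's longest GENCODE M21 transcript gave its GC content and length (10750 of 10790 genes), and the GC correction removed natural splines of 5 degrees of freedom on each. Shared sequence was found with BLAST 2.17.0, from 94% identity over at least 70 nt, and by annotated exon overlap.

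Named genes were all 6 called members, the highest and lowest per length in each compartment, Farsa and Farsb, the 3 uncalled members with the largest change, and called genes of the related lists. Hars2, Nars2, Asns, Atf4, the uncalled markers, Eif2ak4 and the genes named for shared sequence were added after their values were seen. Promoters were to be shown for the called members with the largest change. The members and the lists were chosen with earlier results of these data known. Alternatives were other pseudocounts, filters, scalings, priors and thresholds, the GC correction, a replicate block and leaving out each library. Replicate numbers were not taken to pair the samples.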

Additional observations from a re-analysis of the deposited data

How the results depend on the processing

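Of the 1920 genes called (1077 higher and 843 lower in Tdrd7 null), 16 (9 and 7) were called with a prior that ignores expression level, where the prior degrees of freedom fell to 4.7, and 350 (208 and 142) with the GC and length trend removed. Leaving out a library gave 431 to 2196 calls, 293 to 1166 higher and 138 to 1030 lower, where the lone library of a genotype is assumed to vary like the other group. At an adjusted p under 0.1, 1327 genes were lower. The 6 cytosolic synthetase calls became 3 with totals taken without the crystallin genes, 0 without the intensity trend, 0 with the GC trend removed and 0 to 4 without a library. The 0 mitochondrial calls became 1, Lars2, at an adjusted p under 0.1, and 0 to 1 without a library. Vars turned to 0.03 with the GC trend removed. The cause of these changes was not tested. The same 6 synthetase genes were called with pseudocounts of 0.1 and 5, without the filter, at a minimum mean of 5 (7 mitochondrial genes then untested), with TMM or median-of-ratios scaling and with a robust prior, though Tdrd7 then had an adjusted p of 0.0555. The replicate numbers were not taken to pair the samples. The correlation of replicate differences between genotypes across genes was -0.151, which cannot show whether the pools were paired. With a replicate block the prior degrees of freedom were infinite, so a gene's own spread carried no weight. There 2117 genes were called, among them Lars2 (1 mitochondrial gene) but not Eprs. With the block and the GC trend removed 408 were called (229 higher, 179 lower), with 0 cytosolic and 1 mitochondrial synthetase gene and Vars at 0.03. A crossed replicate block, added after seeing the data, called 3036 genes (1628 higher, 1408 lower) and 1 mitochondrial synthetase gene. Count models planned on recovered reads were not run. Reads per library were as few as 42 for Mars2 and as many as 14905 for Lars2, so depth sets the precision gene by gene.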
